A study of Mus musculus with 17 samples.

Results

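The genes described here are 10 transcription factor genes of the AP-1 and EGR groups, chosen by family name among the 35896 genes listed in each library: the FOS family (Fos, Fosb, Fosl1, Fosl2), the JUN family (Jun, Junb, Jund) and the zinc finger genes Egr1, Egr2 and Egr3. All 10 were matched by Ensembl identifier and all 10 passed the filter on low counts, which kept 13923 genes. RNA was sequenced from mouse pancreatic stellate cells, which in the healthy pancreas are quiescent and in tumours become fibroblasts. The 17 libraries came from 2 lines, PSC4 and PSC5, both WT and of strain C57BL/6J, grown in Matrigel, a basement membrane gel, and collected on day 4 of treatment.

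The control group in control medium had 5 libraries, PSC4 replicates 1, 2 and 3 (passages 23, 24 and 25) and PSC5 replicates 1 and 2 (passages 27 and 28). The TGF-beta group received control medium with 20 ng/mL TGF-beta, a cytokine that turns stellate cells into contractile, collagen-producing cells, and had 4 libraries, PSC4 replicates 2 and 3 and PSC5 replicates 1 and 2. The CM group was kept in medium conditioned by pancreatic tumour organoids, and the neratinib group in such medium with 300 nM neratinib, a drug that blocks the ERBB receptor kinases. Each of these had 4 libraries, replicates 1 and 2 of both lines. A replicate number of a line has the same passage in every group. In conditioned medium every replicate 1 bears the code T8 and every replicate 2 the code T6, whose meaning the labels do not give. Nothing in the labels says that replicates came from separate animals, so the p-values measure the spread between passages of 2 lines.

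AP-1 is a dimer of a FOS and a JUN protein, or of JUN proteins alone, that binds DNA through a basic leucine zipper. FOS proteins cannot pair with each other and need a JUN partner. Fos, Fosb, Jun, Junb and the EGR genes are immediate early genes, switched on within minutes when growth factor receptors activate the RAS and ERK pathway, and their transcripts are short-lived. Fosl1 and Fosl2 lack the activation domain of Fos, respond later, and are often high in cells with lasting ERK activity. Jund is the steady member of its family. EGR proteins bind GC-rich promoter sites, and their activity is restrained by the corepressors Nab1 and Nab2. In fibroblasts, AP-1 and EGR factors act on genes of matrix breakdown, inflammation and growth factor production.

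Promoter sequence was taken from RefSeq on GRCm38 for the 7 genes it held (Fos, Fosb, Fosl2, Jun, Junb, Jund and Egr2). The windows of the 4 genes below are shown because each holds a sequence through which immediate early or self-regulating promoters are known to act, and because these genes moved differently across the media. Capitals mark matches found in either strand: the short site TGACG, part of the cAMP response element, the TATA box TATAAA, the AP-1-like site TGACATCA and the CArG box, which serum response factor binds.
Fos, chr12:85473770-85473889, plus strand: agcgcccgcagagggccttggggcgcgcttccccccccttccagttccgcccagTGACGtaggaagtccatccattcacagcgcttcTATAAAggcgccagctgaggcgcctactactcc
Jun, chr4:95052223-95052342, minus strand: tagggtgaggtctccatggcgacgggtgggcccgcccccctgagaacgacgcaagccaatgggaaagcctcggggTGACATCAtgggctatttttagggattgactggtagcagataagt
Junb, chr8:84978749-84978868, minus strand: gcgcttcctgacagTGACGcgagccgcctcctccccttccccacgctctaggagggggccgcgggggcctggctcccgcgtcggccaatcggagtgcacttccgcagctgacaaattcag
Egr2, chr10:67537749-67537868, plus strand: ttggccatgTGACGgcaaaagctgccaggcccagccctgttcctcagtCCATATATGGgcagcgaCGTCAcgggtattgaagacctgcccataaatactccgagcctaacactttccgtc

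Each printed window is the 120 bases before a RefSeq start. Whether exons of antisense transcripts reach into these windows is not given here. The Fos and Jun windows end next to the gene, and the Egr2 window lies between exons of the gene's longer transcripts. The Jun promoter holds the AP-1-like site 45 to 38 bases before its start, a site through which JUN is known to regulate its own gene. The Egr2 window holds the CArG box CCATATATGG, 72 to 63 bases before the start, between the 2 copies of the short site, and an upstream start of Egr2 has another CArG box, CCTTTTTTGG. Over 250 bases before each start, Fosb and Fosl2 also held the EGR site GCGNGGGCG, as GCGGGGGCG, and the Jund window held none of the motifs searched. Of 32536 such windows of all genes, 17.9% held TGACG, 12.3% TATAAA, 6.73% the AP-1 site TGANTCA, 4.74% the EGR site, 2.84% TGACATCA, 1.56% the whole element TGACGTCA (which contains TGACG) and 1.48% a CArG box. No window of the 7 genes held TGANTCA or TGACGTCA. These matches are letters only and say nothing of binding.

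Library totals lay between 22168953 and 29421447 counts. Levels are given as CPM, counts scaled to a common library total with edgeR's TMM factors, and 3 counts in 1 library stand for 0.101 to 0.137 CPM. The lowest member count was 17, for Fosb. Stellate and fibroblast markers summed to 5447 to 6979 CPM in control, 9907 to 20443 with TGF-beta, 5609 to 6754 in CM and 4075 to 6779 with neratinib. Of these 10 markers 4 were higher and 2 lower with TGF-beta against control, where 40.2% of all genes were called. Desmin (Des), a classic stellate marker, averaged only 1.5 to 2.5 CPM. The 5 acinar markers summed to at most 12.3 CPM, and Ptprc and Cd3e, which mark leukocytes, were near 0 throughout. Epithelial markers summed to 74.4 to 89.6 CPM in control libraries, 83.4 to 142 with TGF-beta, 66.6 to 216 in CM and 38.9 to 347 with neratinib, with the highest sums in the 4 T6 libraries (179 to 347 CPM). Krt8 was under the level of 3 counts in every control library and reached 43.5 and 94.0 CPM in the highest CM and neratinib libraries. Of the 10 epithelial markers 7 were called higher in CM and 8 with neratinib against control, and 1 was lower in each. Of 4 endothelial markers tested against control, 3 were higher with TGF-beta, 1 was higher and 2 lower with neratinib, and 0 were called in CM. The part of other cell types in the values below was not tested. The 3 libraries labelled PSC4 replicate 1 lay with PSC5 on the third principal component of all genes (1.76 to 37.0, against -3.60 to 36.2 for PSC5 and -56.8 to -19.8 for the other PSC4 libraries), so calls that change without them are named. In bulk RNA, fewer cells with a transcript and less of it per cell cannot be told apart.

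**Figure D1:**
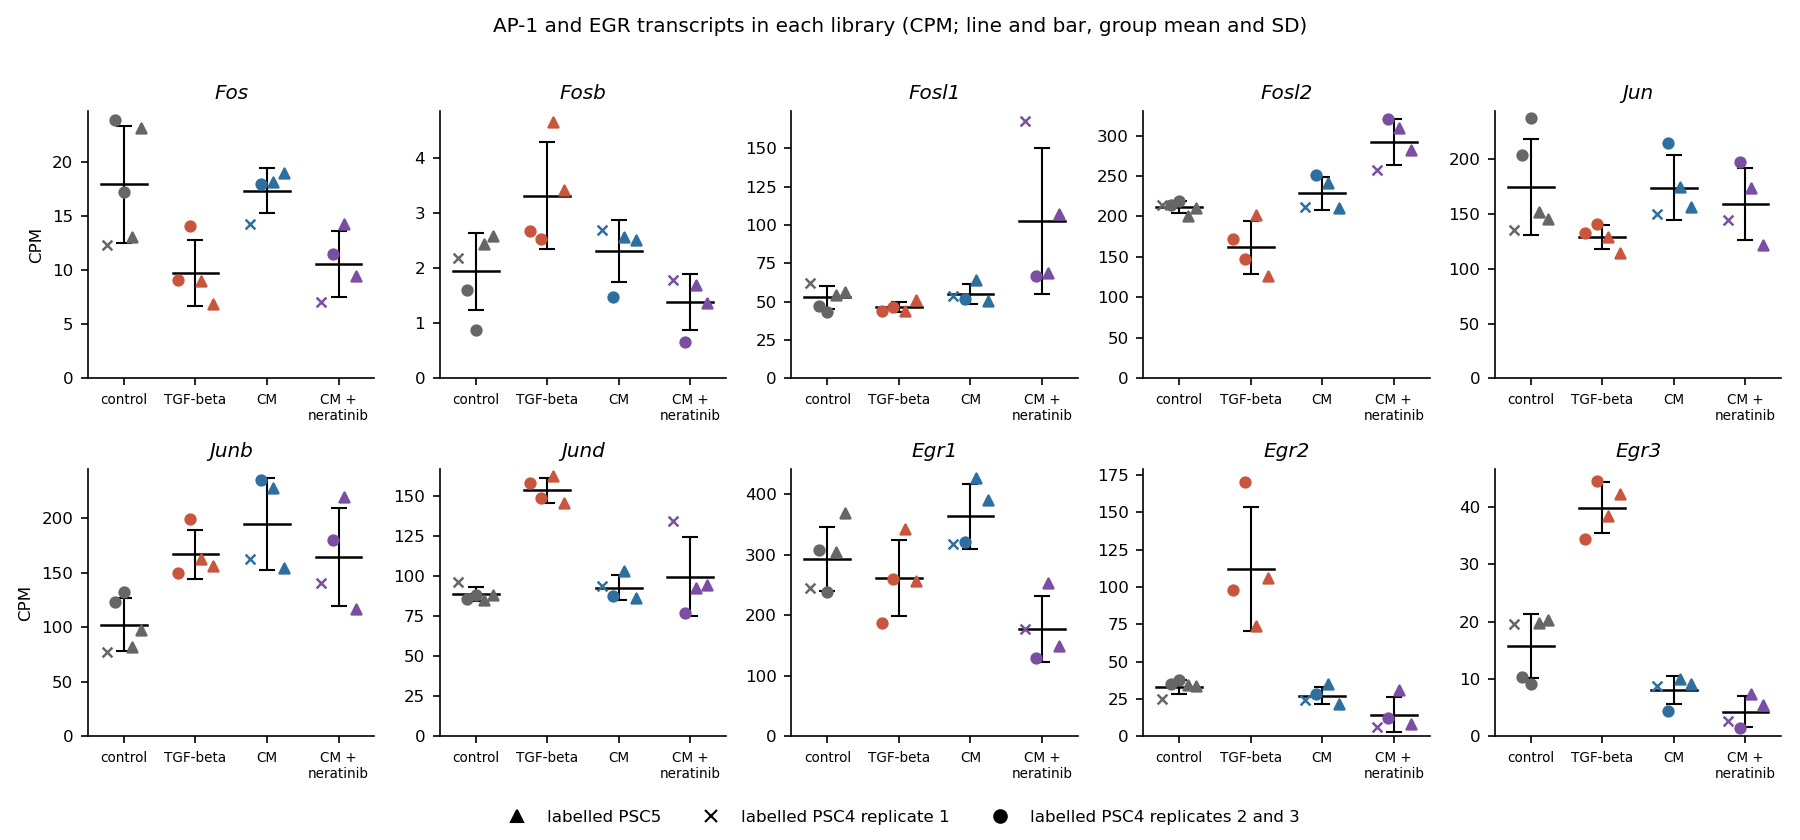
CPM of each gene (vertical axes, each from 0) in the 17 libraries by group; symbols give the labelled line, the long bar is the group mean and the error bar its SD. Jund, Egr2 and Egr3 stand apart in the TGF-beta group, and Egr1 is lowest in 3 of the 4 neratinib libraries.

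Per kilobase of exon, the JUN family was the most abundant of the 3 families in every group and Fosb the least abundant gene. In control medium Egr1 came first (65.3 ± 11.8 CPM per kb, SD, n = 5), before Jun (54.8 ± 13.8), Jund (53.2 ± 2.63) and Junb (44.5 ± 10.6), and the ranges of these neighbours overlapped. A lower tier held Fosl1 (25.9 ± 3.71) and Fosl2 (21.9 ± 0.707), which overlapped each other and no gene of the first tier. Egr2 (9.77 ± 1.41) and Fos (7.63 ± 2.30) overlapped, while Egr3 (3.58 ± 1.26) and Fosb (0.311 ± 0.112) lay below all others. Fosl1 and Fosl2 thus made up most of the FOS transcripts in control medium, 46.4% and 39.4% of the family's level per kilobase, against 13.7% for Fos and 0.552% for Fosb. With the length of the longest transcript in place of all exons, Fosl2 (46.6%) came before Fosl1 (40.5%).

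The makeup of each family shifted with the medium. Among the JUN genes, Jun's share was 35.5% ± 3.63 (n = 5) in control, 19.8% ± 0.803 (n = 4) with TGF-beta, 28% ± 2.22 in CM and 27.5% ± 3.9 with neratinib. All TGF-beta libraries (18.8% to 20.7%) and all CM libraries (25.4% to 30.4%) lay below all control libraries (31.7% to 40.3%). The neratinib libraries (24.2% to 33.15%) overlapped control. Egr2's share of the EGR level was 12.6% ± 2.51 in control, 32.8% ± 9.40 with TGF-beta, 8.87% ± 1.59 in CM and 8.94% ± 4.29 with neratinib, so that Egr1's share was 82.8% in control and 58.1% with TGF-beta. Fos held 5.67% ± 2.52 of the FOS level with neratinib (2.66% to 8.41%), below every control library (9.0% to 18.2%). The sum of the EGR genes per kilobase was 78.6 ± 12.7 in control, 100.3 ± 16.7 with TGF-beta, 90.9 ± 13.2 in CM and 44.7 ± 15.5 CPM per kb with neratinib. These shares are descriptions without a test.

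**Figure D2:**
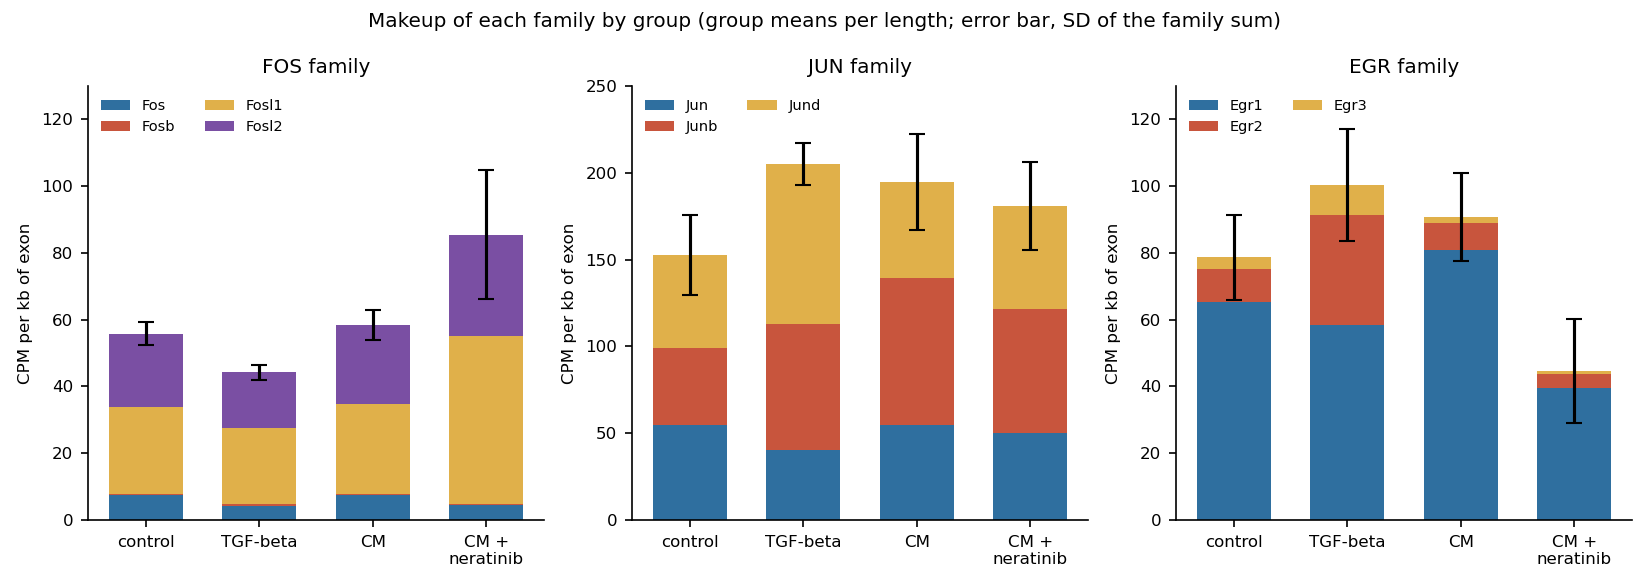
Stacked group means of CPM per kb of exon (vertical axes from 0) for the FOS, JUN and EGR families in the 4 groups; the error bar is the SD of the family sum over libraries. The Jund and Egr2 segments are largest with TGF-beta, the Fosl1 segment is largest with neratinib, and the EGR column is lowest with neratinib.

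The comparison of TGF-beta with control asks which of these genes differ in cells driven towards the myofibroblast state. Egr2, Egr3, Jund and Junb rose and Fos and Fosl2 fell, while Egr1, the most abundant EGR gene, and Fosl1 were not called. The 6 called genes are 4 higher and 2 lower by edgeR's quasi-likelihood test at an adjusted p under 0.05. Of all tested genes 40.2% were called (19.7% higher, 20.5% lower), so a count of this size is not unusual among genes in this comparison. For 4 of the 10 the groups did not overlap, against 32.7% of all tested genes.

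Among the FOS genes, Fos, the founding member, was at 12.4, 23.8 and 17.3 CPM in the PSC4 controls and 13.1 and 23.2 CPM in the PSC5 controls. With TGF-beta it was at 9.09 and 14.1 CPM in PSC4 and 9.03 and 6.88 CPM in PSC5. All but the 14.1 CPM library lay below every control, and Fos fell by 0.88 on the log2 scale (SE 0.26, 1.83-fold lower, adjusted p = 0.013 by edgeR). Fosl2 was steady in control (215, 214 and 219 CPM in PSC4, 200.5 and 211 CPM in PSC5) and was at 173, 147, 201 and 126 CPM with TGF-beta. It fell by 0.39 (SE 0.11, edgeR adjusted p = 0.0131), with only PSC5 replicate 1, at 201 CPM, inside the control range. Without TGF-beta PSC4 replicate 3 that call was lost (adjusted p = 0.0531 by edgeR). Fosl1 was at 62.2, 47.2, 43.3, 54.5 and 56.6 CPM in control and at 44.3, 46.3, 44.0 and 51.2 CPM with TGF-beta, and its difference of -0.18 (SE 0.22) was not called. Fosb, the scarcest of the genes, was at 2.19, 1.61, 0.881, 2.44 and 2.59 CPM in control and at 2.67, 2.53, 4.64 and 3.42 CPM with TGF-beta. Its difference of 0.72 (SE 0.29) missed the threshold (edgeR adjusted p = 0.0577), but was called with the line and replicate number as a block (0.92, adjusted p = 0.00152 by edgeR), without the PSC4 replicate 1 libraries (0.86, edgeR adjusted p = 0.00375) and without control PSC4 replicate 1 alone (edgeR adjusted p = 0.0379). Fos and Fosb thus differed from control in opposite directions in all 4 pairs of the same line and number.

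The JUN genes split. Jund, the least inducible of them, was at 96.2, 85.9, 88.2, 85.2 and 88.4 CPM in control and at 158, 148, 162 and 145 CPM with TGF-beta. The groups lay far apart, and Jund rose by 0.79 (SE 0.12, 1.73-fold, adjusted p = 9.41e-05 by edgeR), the smallest adjusted p among the 10 genes in this comparison. Junb, which can oppose Jun at some promoters, was at 76.8, 124 and 132 CPM in the PSC4 controls, 82.2 and 97.3 CPM in the PSC5 controls, and 149.8, 199, 162 and 156 CPM with TGF-beta. It rose by 0.72 (SE 0.20, 1.65-fold, adjusted p = 0.0104 by edgeR), again without overlap. Jun was at 135, 204 and 237 CPM in the PSC4 controls and 152 and 145 CPM in the PSC5 controls, against 133, 141, 129 and 115 CPM with TGF-beta. The control libraries divide into 204 and 237 CPM in PSC4 replicates 2 and 3 and 135 to 152 CPM in the rest. Jun's difference of -0.40 (SE 0.16) was not called (edgeR adjusted p = 0.0556), but the block gave -0.47 (adjusted p = 0.000671 by edgeR), and without PSC4 replicate 1 it was -0.49 (edgeR adjusted p = 0.00294). Leaving out control PSC4 replicate 1 alone also gave a call (edgeR adjusted p = 0.0151), and Jun was lower in 4 of 4 pairs.

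The EGR genes split too. Egr2, known for its part in myelination and in fibroblast responses to TGF-beta, was at 25.2, 34.7 and 38 CPM in the PSC4 controls, 34.3 and 34.0 CPM in the PSC5 controls, and 98.0, 170.4, 73.6 and 106 CPM with TGF-beta. Every TGF-beta library was above every control, and Egr2 rose by 1.75 (SE 0.36, 3.37-fold, adjusted p = 0.0014 by edgeR). Its lowest TGF-beta value was in PSC5 replicate 1 and its highest in PSC4 replicate 3. Egr3 was at 19.6, 10.4 and 9.13 CPM in the PSC4 controls, 19.7 and 20.2 CPM in the PSC5 controls, and 34.3, 44.5, 38.5 and 42.4 CPM with TGF-beta. It rose by 1.34 (SE 0.29, 2.53-fold, adjusted p = 0.00184 by edgeR), and the control libraries divided as for Jun, with PSC4 replicates 2 and 3 near 10 CPM and the rest near 20 CPM. Egr1 was at 245, 307, 238, 305 and 368 CPM in control and 188, 259.5, 341 and 257 CPM with TGF-beta, overlapping ranges with a difference of -0.21 (SE 0.15, 95% interval -0.53 to 0.12).

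Of 23 other immediate early genes tested, 10 fell, 4 rose and 9 were not called, where 20.5% of all genes fell and 19.7% rose, with a median of -0.55 against -0.02 for all genes tested. Dusp1, a phosphatase that switches off MAP kinases, fell by 1.43 (38.5 ± 2.66 CPM in control, n = 5), Arc fell by 1.38 and Btg2 by 1.24. Among corepressors and known targets of EGR proteins, 8 of 13 rose and 3 fell. Pdgfb, a growth factor gene with an EGR site in its promoter, averaged 1.96 ± 0.284 CPM (n = 5) in control and 34.9 ± 12 CPM (n = 4) with TGF-beta, a rise of 4.05 (SE 0.32), while Icam1 fell by 2.75 and F3, which encodes tissue factor, fell by 2.39. Of 20 known AP-1 targets 9 rose and 3 fell, where Ccl2 fell by 3.15 and Spp1 and Tgfb1 rose by 2.11 and 2.10. Of the 15 other bZIP genes 2 rose, among them Jdp2 by 0.35 and Atf4 by 0.31, and 2 fell, with Maf down by 1.32. Of 8 SRF and ternary complex factor genes 3 rose and none fell in edgeR's test (Elk3 by 0.89, Elk4 by 0.33 and Elk1 by 0.22), and of 20 MAP kinase and phosphatase genes 7 rose and 5 fell, including Dusp4 (up by 1.03) and Dusp10 (down by 0.76). The medians were 0.52 (EGR), 0.62 (AP-1 targets), -0.12 (bZIP), 0.0050 (SRF) and 0.12 (MAP kinases), and 0.27 for the 10 members.

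**Figure D3:**
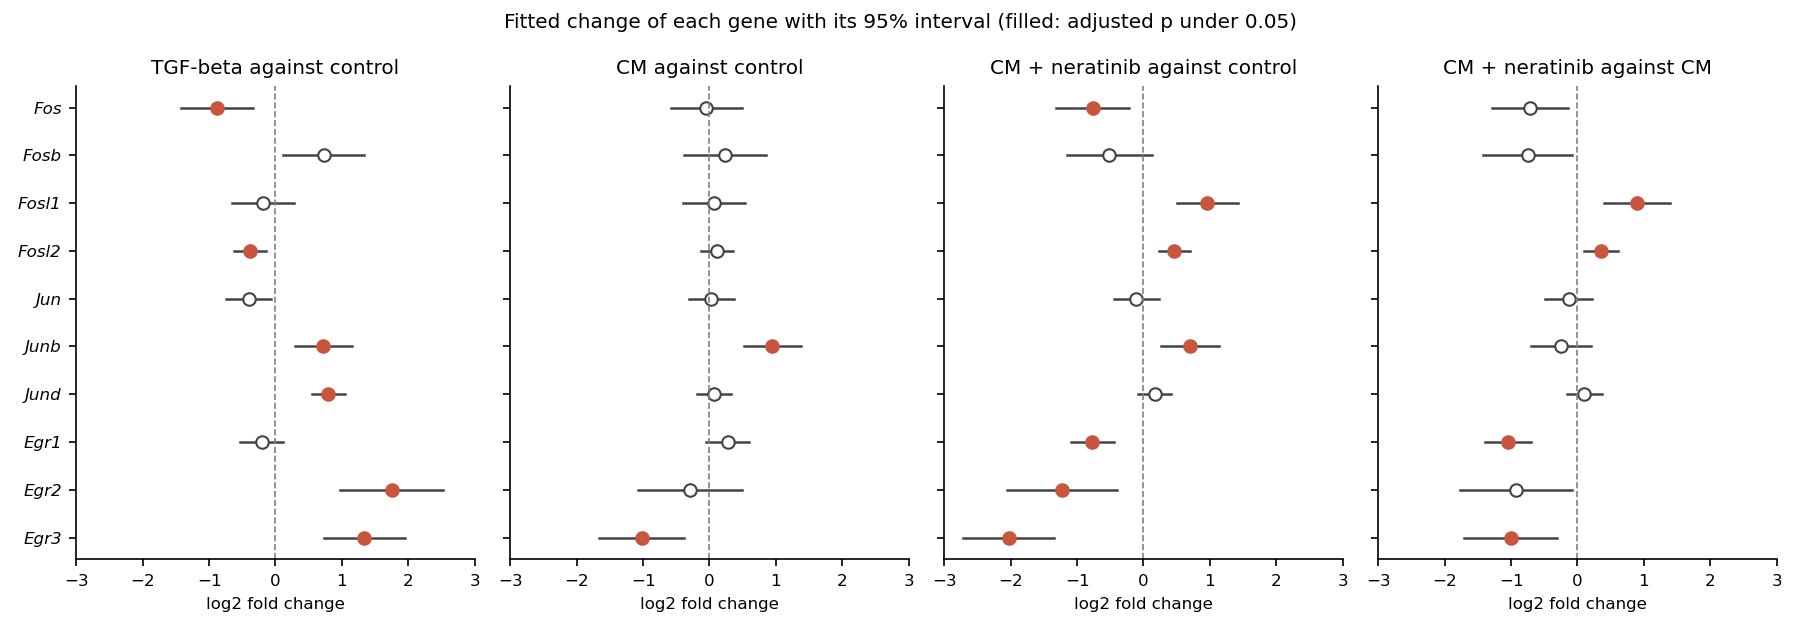
Fitted log2 fold change of each gene (horizontal axis) with its 95% interval in 4 comparisons; filled points passed an adjusted p under 0.05 in edgeR. Egr2 and Egr3 lie right of 0 with TGF-beta and left of 0 with neratinib against control, and Junb lies right of 0 in all 3 comparisons with control, which share the control libraries.

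The comparison of conditioned medium with control asks what tumour organoid secretions do to these genes. Junb rose and Egr3 fell, and the other 8 were not called. The count is 1 higher and 1 lower of 10, against 14.2% of all tested genes called (7.05% higher, 7.14% lower), and 1 gene had no overlap, against 19.8%. Junb was at 163 and 235 CPM in PSC4 and 228 and 155 CPM in PSC5, above all controls, a rise of 0.94 (SE 0.20, 1.92-fold, adjusted p = 0.00771 by edgeR). In the same order the epithelial marker sums were 66.6, 216, 78.3 and 197 CPM, and their part in the Junb values was not tested. Egr3 was at 8.70, 4.48, 10.1 and 9.09 CPM, below the controls at about 20 CPM but beside the PSC4 controls at 9.13 and 10.4 CPM. It fell by 1.02 (SE 0.30, 2.03-fold lower, adjusted p = 0.0357 by edgeR), and was lower in 4 of 4 pairs of the same line and number. The Egr3 call was lost, with adjusted p from 0.0662 to 0.108 by edgeR, on leaving out any 1 of 6 libraries (control PSC4 replicate 1, either PSC5 control, CM PSC4 replicate 2 or either PSC5 CM library), and without a term for the line (edgeR adjusted p = 0.108).

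Egr1, in contrast with Egr3, was at 317, 321, 426 and 389.6 CPM in CM, higher than control in 4 of 4 pairs but not called, with a difference of 0.27 (SE 0.15, 95% interval -0.05 to 0.60). Egr2 was at 24.2, 28.4, 34.9 and 21.5 CPM, with an interval of -1.08 to 0.48. Fos was at 14.3, 18.0, 18.2 and 19.0 CPM, inside the control range, with a difference of -0.05 (95% interval -0.58 to 0.48). Fosb, at 2.68, 1.48, 2.56 and 2.52 CPM, and Fosl1, at 53.9, 51.8, 64.1 and 50.3 CPM, also overlapped control. Fosl2 was at 212, 251, 241 and 210.3 CPM with a 95% interval of -0.13 to 0.35. Jun, at 149.6, 215, 175 and 157 CPM, and Jund, at 93.9, 87.7, 103.0 and 86.3 CPM, differed from control by 0.03 and 0.07, within their errors (SE 0.16 and 0.12).

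Of 23 immediate early genes 4 rose and 3 fell, with Csrnp1 up by 0.83, and Klf4 and Arc down by 0.88 and 0.79. Among known AP-1 targets 10 of 20 rose and 1 fell, with the collagenase gene Mmp13 from 1.4 ± 1.24 to 35.1 ± 26.8 CPM (a rise of 4.89, SE 0.45), stromelysin Mmp3 up by 2.76 and the cytokine gene Il6 by 2.64. Of EGR corepressors and targets 4 of 13 rose (including Ptgs2 by 1.71 and Tgfb1 by 0.79) and 0 fell by edgeR. Of 15 other bZIP genes 4 rose, including Batf3 (1.04) and Atf3 (0.76), and Maf fell by 1.28. Of 8 SRF and ternary complex factor genes Vcl fell by 0.79 and Mrtfa by 0.34 and Elk3 rose by 0.34, and of 20 MAP kinase and phosphatase genes Dusp6, an ERK phosphatase induced by ERK itself, rose by 0.68 and Map2k1 by 0.62. The list medians were 0.04 (immediate early), 0.52 (AP-1 targets), 0.32 (EGR), 0.22 (bZIP), -0.14 (SRF) and 0.000436 (MAP kinases), against -0.000368 for all genes and 0.07 for the 10 members.

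The comparison of neratinib in conditioned medium with conditioned medium alone addresses how these genes differ when the drug is present. No group received neratinib in control medium, and block of the ERBB kinases cannot be told apart from other effects of the drug. Fosl1 and Fosl2 rose and Egr1 and Egr3 fell against CM alone, 2 higher and 2 lower of 10, where 20.5% of all tested genes were called (10.8% higher, 9.63% lower). The groups did not overlap for 4 of the 10 genes, against 18.7% of all genes. With the line and number as a block, 7 were called, the further ones being Fos, Fosb and Egr2, all lower, where 4563 of the 13923 genes were called. With only the 2 groups in the model 1 was called, Egr1, and 602 genes of 13254.

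Egr1, a direct readout of ERK signalling in many cells, was at 177 and 129 CPM in PSC4 and 252 and 149 CPM in PSC5 with neratinib, against 317 to 426 CPM in CM. The groups did not overlap, and Egr1 fell by 1.04 (SE 0.16, 2.06-fold lower, adjusted p = 0.000831 by edgeR), in pairs by 0.84, 1.32, 0.75 and 1.39. Egr3 was at 2.68 and 1.52 CPM in PSC4 and 7.44 and 5.50 CPM in PSC5, a fall of 1.01 (SE 0.33, adjusted p = 0.0416 by edgeR), lower than its CM partner in 4 of 4 pairs. The Egr3 call was lost, at adjusted p from 0.0659 to 0.124 by edgeR, when 1 of 6 libraries was left out (CM PSC4 replicate 1, either PSC5 CM library, neratinib PSC4 replicate 1 or 2, or neratinib PSC5 replicate 2), without PSC4 replicate 1 in all groups (edgeR adjusted p = 0.136), without a line term (edgeR adjusted p = 0.128) and with only the 2 groups in the model (edgeR adjusted p = 0.0935). Egr2 varied most: 6.21, 12.5 and 8.06 CPM in 3 libraries and 31.3 CPM in PSC5 replicate 1, inside the control range. Its difference of -0.93 (SE 0.40) was not called (edgeR adjusted p = 0.111), was called in the block (-1.03, adjusted p = 0.0329 by edgeR), and was -1.64 without neratinib PSC5 replicate 1 (edgeR adjusted p = 0.00139).

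That library, neratinib PSC5 replicate 1, singled out after the values were seen, had the highest value of the group for Egr1, Egr2, Egr3, Fos and Junb. Within its own pair it was lower than CM for all of these, by 0.75 for Egr1, 0.16 for Egr2, 0.44 for Egr3, 0.35 for Fos and 0.05 for Junb. The other 3 pairs fell by 0.84 to 1.39 for Egr1 and by 1.19 to 1.96 for Egr2. Its total was 23890625 counts, inside the range of the group, and its epithelial sum was 89.2 CPM.

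Among the FOS genes, Fosl1 was at 168 CPM in PSC4 replicate 1, 66.5 CPM in PSC4 replicate 2, and 68.9 and 107 CPM in PSC5, above all CM and all control libraries. It rose by 0.90 (SE 0.23, 1.86-fold, adjusted p = 0.0144 by edgeR), in pairs by 1.64, 0.36, 0.10 and 1.09. The size rests in part on 1 library: without neratinib PSC4 replicate 1 the rise was 0.52 (edgeR adjusted p = 0.0318), and with only the 2 groups in the model it was 0.88 and not called (edgeR adjusted p = 0.11). The library with 168 CPM also had the highest sum of immune markers (12.7 CPM, nearly all Cd68, against 2.22 to 2.38 CPM in the rest of the group) and of endothelial markers (32 CPM, mostly Vwf), and their part in the value was not tested. Fosl1 shares 1163 exon bases with Ccdc85b on the other strand, and whether counting used strand is not stated. Ccdc85b averaged 28.1 CPM in CM and 23.5 CPM with neratinib, and the part of its reads in the Fosl1 counts was not tested. Fosl2 was at 257, 320, 309 and 283 CPM, above all CM libraries, and rose by 0.35 (SE 0.12, adjusted p = 0.0455 by edgeR), with pair values of 0.28, 0.35, 0.36 and 0.43. That call lay close to the threshold and was lost on leaving out any 1 of 7 of the 8 libraries, all but neratinib PSC4 replicate 1 (edgeR adjusted p from 0.0511 to 0.123), and without PSC4 replicate 1 in all groups (0.38, edgeR adjusted p = 0.0777). It was also lost with upper-quartile factors (edgeR adjusted p = 0.0555), library totals (0.0844), no filter on low counts (0.0635) and only the compared groups in the model (0.0855), so that it was lost in 12 of 19 alternatives.

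Fos and Fosb lay on the other side. Fos was at 7.02, 11.5, 14.3 and 9.48 CPM, all below the CM libraries, although PSC5 replicate 1 lay just below the lowest CM value, a difference of -0.72 (SE 0.27) that was not called (edgeR adjusted p = 0.0695). The block gave -0.74 with an adjusted p of 0.0235 by edgeR, and leaving out neratinib PSC5 replicate 1 gave -0.91 (edgeR adjusted p = 0.0299). Fosb was at 1.79, 0.662, 1.69 and 1.37 CPM, a difference of -0.75 (SE 0.31, edgeR adjusted p = 0.102). In the block it was -0.78 (adjusted p = 0.0128 by edgeR), and it was also called without the PSC4 replicate 1 libraries (-0.85, edgeR adjusted p = 0.0382) or without neratinib PSC4 replicate 1 alone (-1.07, edgeR adjusted p = 0.0342). Both genes were lower in 4 of 4 pairs, where Fosl1 and Fosl2 were higher in 4 of 4.

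The JUN genes did not pass the test against CM. Jun was at 144, 197, 173 and 121 CPM, a difference of -0.13 (95% interval -0.49 to 0.22). Junb was at 140.4, 180.4, 219.7 and 117 CPM, a difference of -0.24 (95% interval -0.70 to 0.21). Both were lower in 4 of 4 pairs by small amounts, 0.01 to 0.37 for Jun and 0.05 to 0.40 for Junb. Jund was at 135 CPM in PSC4 replicate 1 and at 77.0, 92.4 and 94.2 CPM in the rest, higher in 2 pairs and lower in 2, with a difference of 0.10 (SE 0.12).

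**Figure D4:**
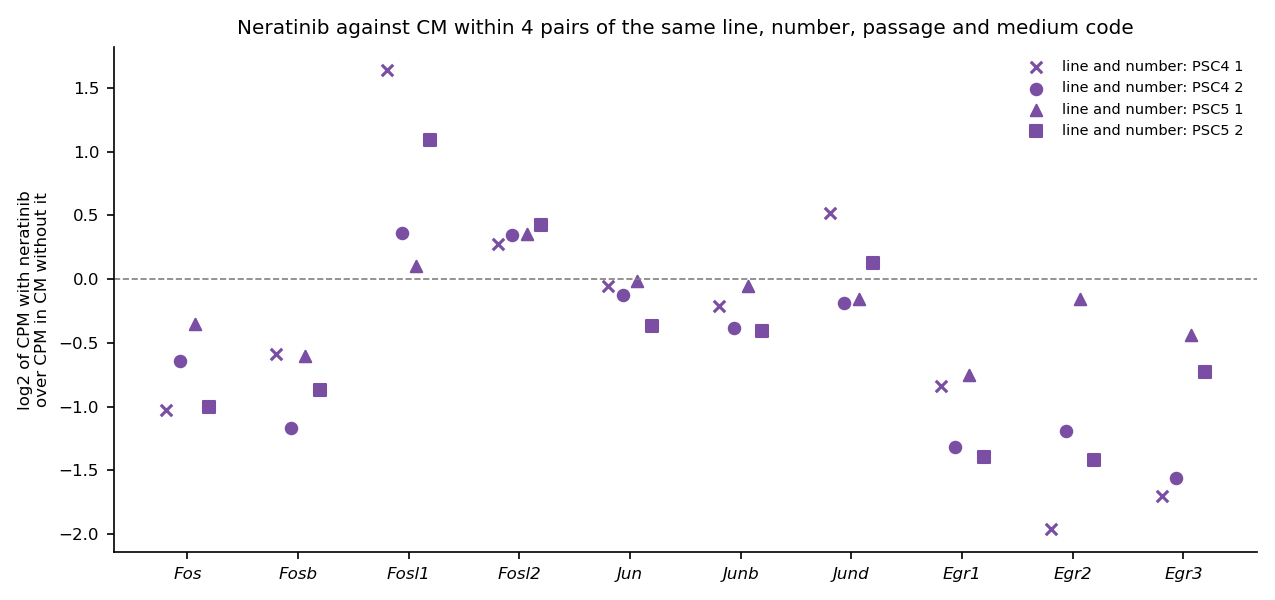
Log2 ratio of CPM with neratinib over CPM in CM (vertical axis) for each gene in the 4 pairs of the same line, replicate number, passage and medium code. Fosl1 and Fosl2 lie above 0 in 4 of 4 pairs and Fos, Fosb, Jun, Junb and the 3 EGR genes below 0 in 4 of 4, with Jund on both sides.

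Of 23 other immediate early genes 5 rose, 2 fell and 16 were not called. Klf2, a factor linked to quiescence, averaged 7.54 ± 0.742 CPM in CM and 28.9 ± 7.36 CPM with neratinib (both n = 4), a rise of 1.92 (SE 0.16), Klf4 rose by 1.09 and Ier3 by 0.86. Of 13 EGR corepressors and targets, 2 rose and 2 fell: the corepressor Nab2, itself an EGR target, fell by 0.58 (163.8 ± 14.0 to 109.3 ± 11 CPM), Thbs1 by 1.23, and Pdgfa rose by 0.65. Of 20 AP-1 targets 4 rose, with Hmox1 up by 2.26 and Il6 by 1.82, and 3 fell, with Ccl2 down by 0.74. Of 15 other bZIP genes 4 rose and 2 fell: Atf4, the stress response factor, by 1.12 (370.3 ± 37.7 to 806 ± 151 CPM), the AP-1 repressor Jdp2 by 0.95, and Maf fell by 1.04. Dusp6 fell by 0.51 and Map2k1 rose by 0.37, the only 2 of 20 MAP kinase and phosphatase genes called. Elk1 was the 1 called gene of 8 in the SRF list (0.21). The medians were 0.06 (immediate early), -0.12 (EGR), 0.00108 (AP-1 targets), 0.08 (bZIP), 0.02 (SRF), -0.08 (MAP kinases) and -0.48 (the 10 members), against 0.000818 for all genes.

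Against control medium, the neratinib group showed 7 of 10 genes called, 3 higher and 4 lower, where 43.1% of all tested genes were called (22.2% higher, 20.9% lower). Groups did not overlap for 3, against 29.4%. Egr3 fell by 2.03 (SE 0.32, 4.08-fold lower, adjusted p = 0.000235 by edgeR) and every neratinib library was below every control. Egr1 fell by 0.77 (SE 0.15, adjusted p = 0.00132 by edgeR), with only the 252 CPM library inside the control range. Egr2 fell by 1.23 (SE 0.39, adjusted p = 0.0193 by edgeR). Without neratinib PSC5 replicate 1 the fall of Egr2 was 1.91, and the call was lost without neratinib PSC4 replicate 1, PSC4 replicate 2 or PSC5 replicate 2 (edgeR adjusted p from 0.0511 to 0.0661) and without PSC4 replicate 1 in all groups (-1.0, edgeR adjusted p = 0.0612).

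Fosl1 rose by 0.96 (SE 0.22, 1.95-fold, adjusted p = 0.00277 by edgeR), or by 0.57 without neratinib PSC4 replicate 1 (edgeR adjusted p = 0.00757). Fosl2 rose by 0.47 (SE 0.11, adjusted p = 0.00404 by edgeR), and its 4 neratinib libraries lay above all 5 controls. Junb rose by 0.70 (SE 0.20, adjusted p = 0.0121 by edgeR), close to its values in CM, with PSC5 replicate 2 at 117 CPM inside the control range. Fos fell by 0.76 (SE 0.26, adjusted p = 0.0258 by edgeR), and lost its call without control PSC4 replicate 2, control PSC5 replicate 2, neratinib PSC4 replicate 1 or neratinib PSC5 replicate 2 (edgeR adjusted p from 0.0643 to 0.0933), and with only the 2 groups in the model (edgeR adjusted p = 0.0531). Fosb differed by -0.52 (SE 0.30) and was called in the block (-0.66, adjusted p = 0.0144 by edgeR), without the PSC4 replicate 1 libraries (-0.74, edgeR adjusted p = 0.025) and without neratinib PSC4 replicate 1 alone (edgeR adjusted p = 0.043). Jun (-0.11, SE 0.16) and Jund (0.17, SE 0.12) were not called, though Jund was at 0.29 without neratinib PSC4 replicate 2 (edgeR adjusted p = 0.0367) and -0.03 without neratinib PSC4 replicate 1.

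In the same comparison 9 of 23 immediate early genes rose and 4 fell, with Arc down by 2.28, and Klf2 and Ier3 up by 1.91 and 1.42. Of 15 other bZIP genes 8 rose and 2 fell (Maf fell by 2.33, Atf4 up by 1.55, Atf3 up by 0.99). Of 20 AP-1 targets 12 rose and 2 fell, with Mmp13 up by 5.82, Il6 by 4.46 and Mmp3 by 2.66. EGR corepressors and targets held 5 higher and 3 lower of 13, with Ptgs2 up by 1.66, and Thbs1 and F3 down by 1.82 and 1.01. Of the other lists, 2 of 8 SRF genes rose and 2 fell (Elk3 up by 0.46, Vcl down by 0.99, Mrtfa down by 0.42), and 2 of 20 MAP kinase genes rose and 2 fell (Map2k1 up by 0.99, Dusp5 down by 0.81, Dusp1 down by 0.53). The medians were 0.37 (immediate early), 0.70 (bZIP), 0.82 (AP-1 targets), -0.09 (EGR), -0.06 (SRF), 0.02 (MAP kinases) and -0.31 (the 10 members), against 0.00459 for all genes. The lists overlap: Atf3 and Maff are in both the immediate early and the bZIP list, Dusp1 in the immediate early and the phosphatase list, and Tgfb1 and Cd44 in both target lists.

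Direct comparison of the conditioned media with TGF-beta shows where these genes differ between the treatments. In CM 6 of 10 genes differed from TGF-beta, 3 higher and 3 lower, where 35.3% of all genes were called (17.8% higher, 17.5% lower), and 6 had no overlap, against 31.5%. Egr3 was 5.13-fold lower in CM (a log2 difference of -2.36, SE 0.32, adjusted p = 5.19e-05 by edgeR), Egr2 4.15-fold lower (-2.05, SE 0.40, adjusted p = 0.000954) and Jund 1.66-fold lower (-0.73, SE 0.12, adjusted p = 0.000381), each without overlap. Fosl2 was higher by 0.50 (SE 0.12, adjusted p = 0.00416 by edgeR), Fos by 0.83 (SE 0.27, edgeR adjusted p = 0.0257) and Egr1 by 0.48 (SE 0.16, edgeR adjusted p = 0.0302). The Fos call was lost without TGF-beta PSC4 replicate 2, either PSC5 TGF-beta library, CM PSC4 replicate 2 or either PSC5 CM library (edgeR adjusted p from 0.0526 to 0.0846). The Egr1 call was lost without replicate 2 of TGF-beta in either line, either PSC4 CM library or CM PSC5 replicate 1 (edgeR adjusted p from 0.0547 to 0.0987), without a line term (edgeR adjusted p = 0.0964), without PSC4 replicate 1 in all groups (edgeR adjusted p = 0.0501) and with those libraries counted as PSC5 (edgeR adjusted p = 0.0854). Junb, raised over control in both, was 0.23 higher in CM than with TGF-beta (95% interval -0.23 to 0.68) and not called. Jun was 0.43 higher (edgeR adjusted p = 0.0567) and was called in the block (0.57, edgeR adjusted p = 0.000405), without the PSC4 replicate 1 libraries (edgeR adjusted p = 0.00286) and without CM PSC4 replicate 1 alone (edgeR adjusted p = 0.0284). Fosb was 0.49 lower on the log2 scale, not called (edgeR adjusted p = 0.232), and was called in the block (-0.81, edgeR adjusted p = 0.00753) and without the PSC4 replicate 1 libraries (-0.75, edgeR adjusted p = 0.0165).

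With neratinib in conditioned medium all 3 EGR genes were lower than with TGF-beta, whereas in CM alone Egr1 was higher (0.48, adjusted p = 0.0302 by edgeR). Egr3 was 10.3-fold lower (-3.37, SE 0.34, adjusted p = 2.7e-06 by edgeR), Egr2 7.89-fold lower (-2.98, SE 0.42, adjusted p = 5.41e-05) and Egr1 1.48-fold lower (-0.56, SE 0.16, adjusted p = 0.0107). In all, 2 genes were higher and 5 lower of 10, where 44% of all genes were called (23.1% higher, 20.9% lower), and 6 had no overlap, against 30%. Fosl1 and Fosl2 were higher by 1.14 and 0.85 (SE 0.23 and 0.12, adjusted p = 0.00112 and 5.02e-05 by edgeR), and Fosb and Jund lower, with differences of -1.24 and -0.63 (SE 0.31 and 0.12, adjusted p = 0.00499 and 0.000962 by edgeR). The Egr1 call was lost with only the 2 groups in the model (edgeR adjusted p = 0.0632). Fos (0.11, SE 0.27) and Junb (-0.02, SE 0.21) were not called. Jun was 0.30 higher and not called (edgeR adjusted p = 0.164), but was called in the block (0.43, edgeR adjusted p = 0.00222) and without PSC4 replicate 1 (0.39, edgeR adjusted p = 0.0171). Of 23 other immediate early genes 13 were higher and 3 lower in CM than with TGF-beta (17.8% and 17.5% of all genes). Nr4a1 was higher by 1.53, and Klf10, a TGF-beta-induced early gene, was lower by 1.39 (35.5 against 93.0 CPM). Of 20 AP-1 targets 7 were higher (Mmp13 by 5.37, Mmp3 by 4.50, Ccl2 by 4.46) and 6 lower. Of 13 EGR corepressors and targets 4 were higher, with Icam1 by 2.92, and 5 lower. Pdgfb was lower, at 2.51 CPM in CM, 1.65 CPM with neratinib and 34.9 CPM with TGF-beta. With neratinib against TGF-beta, 11 immediate early genes were higher and 3 lower, 7 and 8 AP-1 targets, and 3 and 6 EGR genes.

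Whether the effects differed between the lines was tested by interaction terms for each of the 3 media against control. None of the 10 genes was called by edgeR in any of them, none had an unadjusted p under 0.05, and of all tested genes 0 were called (0%). Over all genes DESeq2 called 27, 0 and 2. The code T6 against T8 also called 0 members and 0 genes in all by edgeR, where DESeq2 called 33 genes. Junb had the only unadjusted p under 0.05 for the code (-0.48, SE 0.18), and its edgeR adjusted p was 0.703. The code and the replicate number go together in conditioned medium, and the 2 are told apart only through control and TGF-beta libraries of the same passage.

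**Figure D5:**
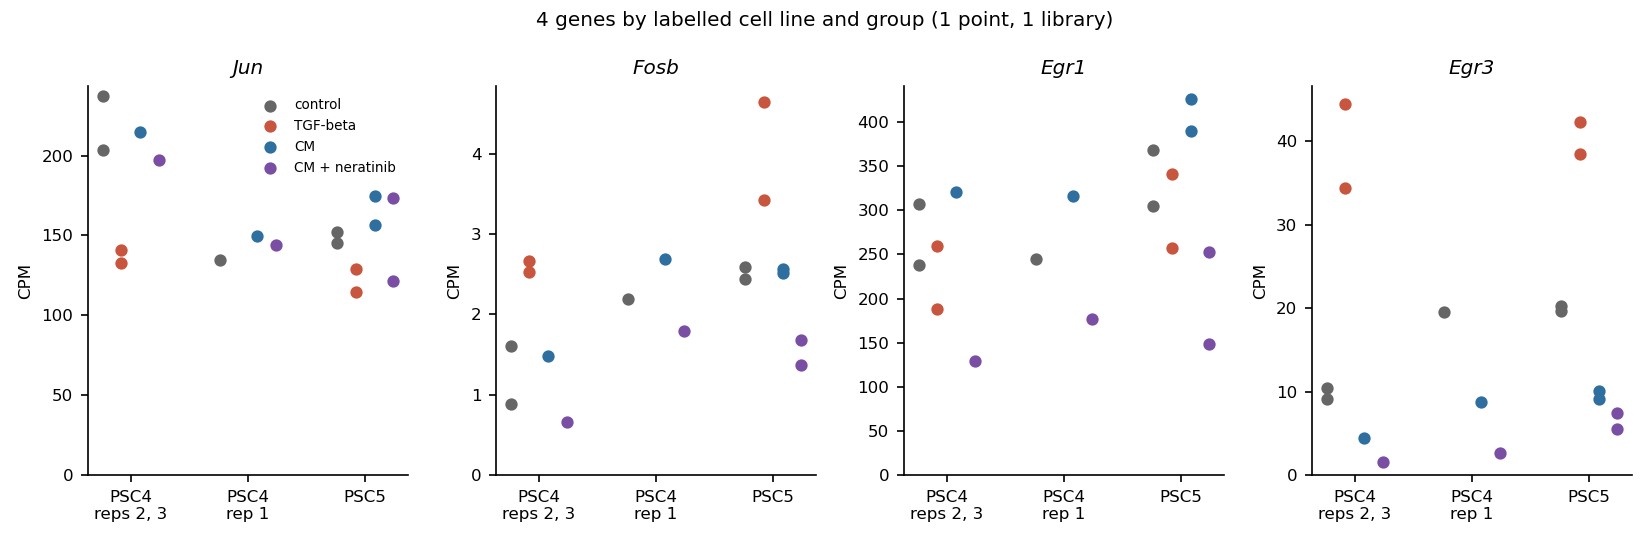
CPM of Jun, Fosb, Egr1 and Egr3 (vertical axes from 0) by labelled line, with the PSC4 replicate 1 libraries shown apart; colours give the group and each point is 1 library. For Jun and, within control and CM, for Fosb and Egr3, the libraries labelled PSC4 replicate 1 lie nearer to PSC5 than to the other PSC4 libraries.

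Line itself, a comparison added after the values had been seen, gave 0 called members of 10 for PSC5 against PSC4 with all 17 libraries, where 6.97% of all genes were called (2.18% higher, 4.78% lower), and 3 had an unadjusted p under 0.05 by edgeR. Without the libraries labelled PSC4 replicate 1 there were 4: Fosb (0.87) and Egr3 (0.82) and Egr1 (0.41) were higher in PSC5 and Jun was lower, with a difference of -0.38 (adjusted p = 0.00116, 0.00777, 0.0225 and 0.00343 by edgeR). As 42.6% of all genes were then called (21% higher, 21.5% lower), this share is near the background. In control medium Jun was at 204 and 237 CPM in PSC4 replicates 2 and 3, at 135 CPM in the library labelled PSC4 replicate 1, and at 152 and 145 CPM in PSC5. Egr3 was at 10.4 and 9.13, then 19.6, then 19.7 and 20.2 CPM in the same order. The falls of Egr3 with neratinib were seen on both sides, to 1.52 CPM from 4.48 CPM in CM PSC4 replicate 2 and to 7.44 and 5.50 CPM from 10.1 and 9.09 CPM in PSC5.

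Genes with the most similar pattern were sought among 9763 genes with a mean of at least 10 CPM, by Pearson r of log2 CPM over the 17 libraries, as a description in which group, line and library are shared. Fos was closest to Zfp36 (r = 0.90), Slbp and Ift80, and Fosb to Sec24a (0.93), Dusp5 and Psme4. Fosl1 was closest to Txnrd1 (0.97), Hdgf and Rin1, and Fosl2 to Lmbr1 (0.93), Adam9 and Ptx3. Jun followed R3hcc1l (0.95), Ahr and Arrdc2, Junb followed Fblim1 (0.89), Serinc3 and Rtn3, and Jund followed Capg (0.94), Acsbg1 and Alcam. Egr1 was nearest to Rad18 (0.88), Mcm3ap and Errfi1, Egr2 to Gpr153 (0.95), Adgrl1 and Nbas, and Egr3 to Map1a (0.96), Stard13 and Fn1. No member was among the nearest genes of another because members were left out of the search.

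Some counts may hold reads of neighbouring transcripts. Junb shares 173 exon bases with Prdx2, on the opposite strand, which averaged 171, 184, 165 and 179 CPM in control, TGF-beta, CM and neratinib, and the part of its reads in the Junb counts was not tested. Jund shares 877 and Jun 232 exon bases with antisense transcripts, which were not analysed here. Of 10 heat shock genes, which are induced by stress, 2 rose and 1 fell with TGF-beta, where 40.2% of all genes were called, and 0 rose and 1 fell by edgeR in CM (14.2%). With neratinib 4 of the 10 rose and 1 fell against control (43.1% of all genes called), and 1 rose and 1 fell against CM (20.5%). The 1 that fell each time was Hspa1b, at 136.3 ± 7.44 CPM in control, 50.9 with TGF-beta, 102.9 in CM and 60.4 CPM with neratinib.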

How the data were processed

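The authors deposited expected counts per Ensembl gene, 1 table per library, estimated with Salmon 1.4.0 on GRCm38 (mm10) per the submitters' processing notes. The annotation release, read filters and use of strand are not given in the sources used here. Expected counts were rounded to whole numbers, since 74.8% of values above 0 were not whole. Groups came from the labels. All 17 libraries were fitted in 1 model of group and cell line by quasi-likelihood in edgeR 4.0.16 (R 4.3.3), after TMM scaling and a filterByExpr filter on groups with a minimum count of 10 and a minimum total of 15, and p-values were adjusted by Benjamini-Hochberg over 13923 genes, with a threshold of 0.05. The fit was tested on simulated data, in which libraries were drawn independently. That simulation had no shared effect of line or passage, so it does not cover the pairing of libraries.

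The 10 members, the lists and the tests were chosen with earlier results of these data known. All members are named in every comparison. The rule for each list was up to 3 called genes with the largest change and at least 10 CPM in the higher group. In the direct comparisons with TGF-beta only some of the genes that this rule picks are named. The same holds for the heat shock and marker lists in every comparison. A gene that this rule picks in the comparison of CM with control is not reported here. The lists are immediate early genes, EGR corepressors and targets, other bZIP genes (AP-1 partners), SRF and ternary complex factors, AP-1 targets, MAP kinases and phosphatases, heat shock genes and markers of stellate, epithelial, acinar, immune and endothelial cells. Gene positions and exon lengths came from GENCODE M21 (GRCm38), and promoter windows from RefSeq.

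Libraries of a line with the same number share the passage in the labels. In all 22 such pairs of different groups the deviations from group means correlated above 0.1 (r from 0.12 to 0.635, median 0.30). So did 14 of 32 pairs of the same line and other number (median -0.076) and 14 of 54 pairs of the other line (median -0.18). The numbers were taken to pair the libraries, but the main model has no term for the pairs, which enter only in the block. The replicate block has 5 levels of line and number. No 2 libraries of a group were identical. Alternatives were DESeq2 1.42.0, DESeq2 size factors, upper-quartile factors, library totals, other filters, no line term, the block, only the compared groups, and leaving out each library. The treatment of the libraries labelled PSC4 replicate 1 and exon length were also varied.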

Additional observations from a re-analysis of the deposited data

Results flagged for a closer look

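Of 40 gene and group combinations with 4 or 5 libraries, 1 had a library far from the others: Fosb in CM PSC4 replicate 2 was at 1.48 CPM, below 2.52 to 2.68 CPM in the other 3 CM libraries. Chance gives about 1 in 20 such cases. The same line and number was also the lowest of its group for Fosb with neratinib (0.662 CPM), and the 2 lowest controls, PSC4 replicates 2 and 3 (1.61 and 0.881 CPM), are of the same line.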

How the results depend on the processing

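Of 60 member results in 6 comparisons 32 were called, and 22 of these kept their call in every alternative run, among them Egr2, Egr3, Junb, Jund and Fos with TGF-beta and Egr1 with neratinib. Of all tested genes 14.2% (CM against control) to 44% (neratinib against TGF-beta) were called in these comparisons. The comparisons share groups, so the member results are not independent. The share of all genes that kept a call in every alternative is not given. No called result changed direction. DESeq2 lost 0 calls and gained 4. The replicate block lost 0 and gained 9, given beside each result, and changed no other call. The number of called members with neratinib against CM was 7 in the replicate block, 1 with only the compared groups, and 2 to 5 leaving out 1 library. For CM against control it was 1 without a line term and 1 to 2 leaving out 1 library. For PSC5 against PSC4 it was 4 both on removing PSC4 replicate 1 and on counting it as PSC5.

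Only uncalled results changed direction. CM against control gave for Jun -0.021 with upper-quartile factors, -0.038 with library totals, -0.0055 without a line term and -0.066 to 0.14 leaving out 1 library. For Fos it gave 0.0099 with PSC4 replicate 1 counted as PSC5, 0.050 in the replicate block and -0.16 to 0.090 leaving out 1 library, and for Fosl1 -0.025 to 0.13. Neratinib against TGF-beta gave for Junb 0.00249 with library totals, 0.095 and 0.061 with PSC4 replicate 1 removed or counted as PSC5, 0.13 in the replicate block and -0.24 to 0.11 leaving out 1 library, and for Fos -0.070 to 0.35. Jund with neratinib was -0.073 against CM with PSC4 replicate 1 removed, and leaving out 1 library it was -0.087 to 0.21 against CM and -0.029 to 0.29 against control. The cause was not tested. Per longest transcript, control levels were 0.513 CPM per kb for Fosb, 32.4 for Fosl2, 56.6 for Junb and 11.2 for Egr2.

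Over all genes the block called 3240 genes for CM against control (1976 otherwise) and 4563 for neratinib against CM (2850 otherwise, 602 with only those groups). Counting PSC4 replicate 1 as PSC5 gave 2986 for CM against control. Leaving out 1 library gave as few as 801 (without CM PSC5 replicate 1) and 1748 (without neratinib PSC5 replicate 2) in these 2 comparisons. With library totals alone the median of all genes moved to -0.15 with TGF-beta and -0.11 with neratinib against control. The share of called genes that were higher then went from 49% to 28.7%, from 51.4% to 32.2% with neratinib, from 49.7% to 33.5% with CM, from 52.9% to 38% for neratinib against CM, and from 50.4% to 63.4% for CM against TGF-beta. Upper-quartile factors gave 37.5% for CM and 41.1% for neratinib against control. Fosb, with as few as 17 counts in a library, is the least precise of the genes, and 2 libraries per line and medium limit the interaction tests.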
